A study of Mus musculus with 6 samples.

Results

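The genes described here are the 10 that carry a cell across the G1 phase of the cell cycle: the D-type cyclins Ccnd1, Ccnd2 and Ccnd3, the E-type cyclins Ccne1 and Ccne2, the kinases Cdk2, Cdk4 and Cdk6, the inhibitor Cdkn1b and the transcription factor E2f1. They were taken by symbol, and all 10 were found among the 25805 genes listed. RNA sequencing had measured gene expression in the kidney of mice given ischaemia-reperfusion injury, a loss and return of the organ's blood supply that serves as a model of acute kidney injury. Of the 6 libraries, 3 came from mice of WT genotype and 3 from mice labelled CXCR2 knockout, and all were injured. No uninjured kidney was analysed here, and the labels give neither the time after injury nor the age, sex or strain of the mice. Whether the libraries are from different animals is not stated either, so p-values here refer to the spread among these samples, which may be technical.

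In textbook outline, mitogens raise the D-type cyclins, which bind CDK4 or CDK6 and begin to phosphorylate the retinoblastoma protein. This releases E2F factors such as E2F1, which switch on the E-type cyclins and the genes of DNA replication. Cyclin E with CDK2 then completes the step into S phase, and p27, the product of Cdkn1b, holds cyclin-CDK2 complexes in check. In the kidney, surviving tubule cells are known to re-enter the cycle after ischaemia, while most are at rest before it.

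Recovered reads ran from 15518083 to 20356601 per library. Values are normalized counts, that is reads divided by 1 size factor per library. Cxcr2, the targeted receptor gene, did not separate the groups: it had 15.9, 88.8 and 56.9 in wild type against 98.0, 36.8 and 56.6 in labelled knockout (limma adjusted p = 0.841). Values are given in this way throughout, in the order of libraries 1, 2 and 3. Where the gene was deleted is not stated, and reads outside the deletion check nothing, so every direction below is one between labels. Labelled-knockout library 1 stood apart from the other 5 on the first principal component (86.0 against -27.3 to -4.16). The tissue label was checked on 12 proximal tubule markers, all of them detected in every library. Their summed levels, in which Kap was the most abundant, were 210147 to 279601 in wild type and 212952 to 246646 in labelled knockout. Gene by gene, 10 of 12 means were higher in labelled knockout and 2 lower. The median log2 fold change was 0.70, or 0.29 without labelled-knockout library 1. Of these markers 4 had an unadjusted limma p under 0.05, all higher, where 3.94% of all genes tested were higher at that level. Limma, edgeR and DESeq2 called 0 of these markers. The groups did not overlap for 2 markers, both higher, where 8.27% of all genes tested were separated in that direction.

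**Figure D1:**
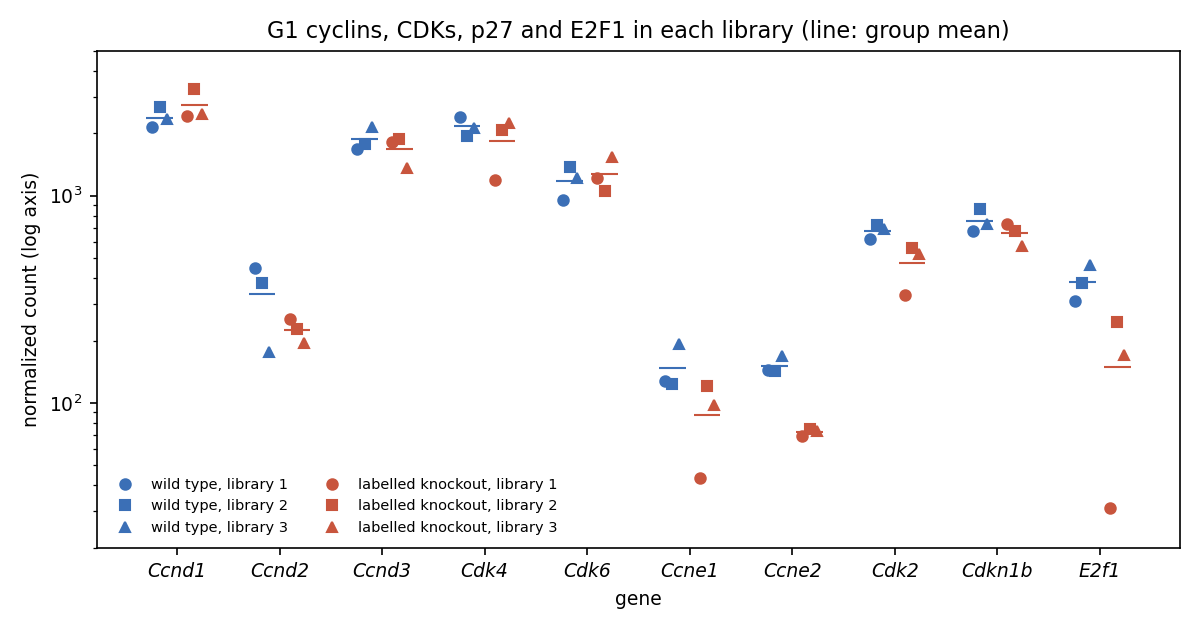
Normalized counts on a log axis of the 10 genes in each of the 6 libraries, with blue for wild type, red for labelled knockout, symbol shape for the library number and a line at each group mean. The groups do not overlap for Ccne1, Ccne2, Cdk2 and E2f1, and labelled-knockout library 1 is the lowest of all 6 for these 4 and for Cdk4.

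For the D-type cyclins, Cdk4, Cdk6 and Cdkn1b the values of the 2 groups overlapped. The groups did not overlap for 4 of the 10 genes, Ccne1, Ccne2, Cdk2 and E2f1, all of them lower in labelled knockout, where 9.43% of the 21721 genes tested were separated in that direction, 8.27% in the other and 17.7% in either. No member passed limma's test over all genes (adjusted p 0.377 to 0.878), in which 0.0046% of genes passed in either direction and 0% lower. Of the 10, 3 had an unadjusted limma p under 0.05, all of them lower. Among all genes tested 6.14% were lower at that level, 3.94% higher and 10.1% either. The quasi-likelihood test of edgeR called 0 members (0.00628% of its 15915 genes were called), and DESeq2 called 1, Ccne2, where it called 1.95% of its 16222 genes, 1.3% lower. Lower means were found for 8 of the 10 members against 50.1% of all genes tested, and the median log2 fold change was -0.38 against -0.0010 over all genes tested. In whole tissue, fewer cells of a type and less RNA per cell cannot be told apart.

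Compared per kilobase of exon, the members spanned a wide range of levels, with Cdk4 and Ccnd1 at the top. Their means over the 6 libraries were 614 and 542 normalized counts per kilobase. Ccnd3 (202), Cdkn1b (155), Cdk2 (92.2), Cdk6 (87.6) and E2f1 (84.6) followed, and Ccne1 (44.2), Ccne2 (32.0) and Ccnd2 (29.7) were lowest. Neighbours in this order had ranges that overlapped over the 6 libraries, except for Ccnd1 above Ccnd3 and Cdkn1b above Cdk2. Ccnd3 was above Cdkn1b in 6 of 6 libraries although their ranges overlapped, while Cdk6 was above E2f1 in only 2 of 6. The place of E2f1 differed by group. Means of E2f1, Cdk2 and Cdk6 were 122, 109 and 84.2 in wild type and 47.4, 75.7 and 90.9 in labelled knockout. By the means over the 6 libraries, the E-type cyclins lay far below Ccnd1 and Ccnd3 but not below Ccnd2. Ccne2 was above Ccnd2 in 3 of 6 libraries.

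Ccnd1, the cyclin that links growth factor signalling to the cycle, is on chromosome 7 from 144929931 to 144939925 in mm10. It stood at 2133, 2664 and 2332 normalized counts in wild type and at 2415, 3285 and 2479 in labelled knockout. The groups overlapped, and the highest value was that of labelled-knockout library 2. Its log2 fold change was 0.19 (SE 0.18, 95% interval -0.22 to 0.60, limma adjusted p = 0.735), so the interval ends below a doubling of the level. With 1 library left out it ran from 0.048 to 0.28.

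Ccnd3, the D-type cyclin of many resting and differentiating tissues (chromosome 17, 47505051 to 47599691), stood at 1676, 1771 and 2151 in wild type and at 1820, 1878 and 1363 in labelled knockout. Only labelled-knockout library 3 lay outside the wild-type range. The fold change was -0.15 on the log2 scale (SE 0.18, 95% interval -0.57 to 0.27, limma adjusted p = 0.798). It lay between -0.24 and -0.0049 when each library was left out in turn. Ccnd2, the third D-type cyclin (chromosome 6, 127125162 to 127152193), was the most variable of the D-type cyclins in wild type, at 450, 377 and 176. Its labelled-knockout values of 254, 227 and 195 all lay within that range. The log2 fold change of -0.47 (SE 0.35, 95% interval -1.26 to 0.32, limma adjusted p = 0.663) became -0.88 without wild-type library 3, and -0.21 without library 1 of wild type.

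Per kilobase, Ccnd1 made up most of the D-type cyclin RNA in every library. Its share of the D-type sum was 65.5%, 70.0% and 65.2% in wild type and 68.6%, 74.6% and 75.0% in labelled knockout. The share of Ccnd3 was 28.3% ± 3.70 in wild type and 24.2% ± 3.07 in labelled knockout, and that of Ccnd2 was 4.78% ± 2.23 and 3.04% ± 0.527 (SD, n = 3). These shares overlapped between the groups.

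The partner kinases of the D-type cyclins did not separate the groups either. Cdk4 (chromosome 10, 127063534 to 127067920) stood at 2398, 1947 and 2126 in wild type and at 1190, 2075 and 2233 in labelled knockout. Labelled-knockout library 1 alone lay below the wild-type range. The log2 fold change of -0.28 (SE 0.24, 95% interval -0.84 to 0.27, limma adjusted p = 0.715) was 0.0023 without that library. Cdk6, the related kinase best known from blood cells (chromosome 5, 3341485 to 3531008), stood at 950, 1368 and 1216 in wild type and 1222, 1055 and 1539 in labelled knockout. Its log2 fold change was 0.11 (SE 0.20, 95% interval -0.35 to 0.57, limma adjusted p = 0.878). It turned to -0.038 when wild-type library 1 was left out and to -0.037 when labelled-knockout library 3 was. Per kilobase, Cdk6 was 8.42% to 14.03% of the Cdk4 and Cdk6 sum in wild type. It was 19.3% of that sum in labelled-knockout library 1, where Cdk4 was low, and 10.6% and 13.8% in libraries 2 and 3.

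Ccne2, which encodes cyclin E2, an activator of CDK2 (chromosome 4, 11191351 to 11204779), was the member with the clearest separation. It stood at 144, 142 and 168 normalized counts in wild type and at 69.1, 74.5 and 73.1 in labelled knockout, from 62 to 172 reads per library. Every labelled-knockout value was far below every wild-type value, and the 3 labelled-knockout libraries were nearly level with one another, library 1 included. The means were 152 ± 14.6 and 72.2 ± 2.84 (SD, n = 3), a ratio of 2.10. Limma put the log2 fold change at -1.06 (SE 0.26, 95% interval -1.65 to -0.46, adjusted p = 0.377), while DESeq2 called it lower (-1.07, adjusted p = 0.0142). With any 1 library left out the difference stayed between -1.10 and -0.98. The limma adjusted p nevertheless reached 0.946 without wild-type library 2, a value that Ccnd1 and E2f1 shared in that fit. Over 15 alternatives the adjusted p ran from 0.0142, by DESeq2, to 0.946. The lowest by limma was 0.207, without labelled-knockout library 1.

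Exons of Ccne2 share 17.4% of their bases with other annotated genes, including Ints8, a subunit of the Integrator complex on the opposite strand. Since it is not known whether the counting used strand, reads in that stretch cannot be assigned to one of them with certainty. Ints8 stood at 365, 285 and 289 in wild type and 508, 361 and 356 in labelled knockout (a log2 difference of 0.37, SE 0.22, limma adjusted p = 0.589, and 0.20 without labelled-knockout library 1), the opposite direction to that of Ccne2.

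Ccne1, which encodes cyclin E1, the other activator of CDK2 (chromosome 7, 38097984 to 38107534), stood at 128, 124 and 192 in wild type and at 43.4, 120 and 97.8 in labelled knockout. The groups did not overlap, but the gap was narrow: 124 in wild-type library 2 had a 95% Poisson interval of 104 to 147, and 120 in labelled-knockout library 2 one of 99.9 to 143. Such intervals cover counting error only. The groups differed by -0.85 on the log2 scale (SE 0.42, 95% interval -1.79 to 0.094, limma adjusted p = 0.535). Without labelled-knockout library 1 they differed by -0.42. These E-type genes therefore differed in how much rested on that library.

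Cdk2, the kinase bound by the E-type cyclins (chromosome 10, 128697939 to 128705031), stood at 617, 723 and 687 in wild type. In labelled knockout it stood at 331, 557 and 525, below wild type in each library and lowest in library 1. This gave a log2 fold change of -0.55 (SE 0.22, 95% interval from -1.06 to -0.043, limma adjusted p = 0.467). Leaving out labelled-knockout library 1 gave -0.32.

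The promoters of Cdk2 and Ccne1 are shown because these genes stood lower together with E2f1, whose protein binds DNA through a short GC-rich motif. RefSeq windows (GRCm38.p6, from 250 bases before to 50 after a start site) were found for 7 of the 10 members, with none for Ccnd1, Ccnd2 and Ccne2. Both are printed 5′ to 3′ on the minus strand, without the bases that lie in an annotated exon. They cover chr10:128705052-128705179 for Cdk2 and chr7:38107535-38107740 for Ccne1, and capitals mark a match to the E2F letters searched.
Cdk2: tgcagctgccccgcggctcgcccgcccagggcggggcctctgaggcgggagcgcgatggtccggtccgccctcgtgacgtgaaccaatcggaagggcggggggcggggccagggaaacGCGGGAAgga
Ccne1: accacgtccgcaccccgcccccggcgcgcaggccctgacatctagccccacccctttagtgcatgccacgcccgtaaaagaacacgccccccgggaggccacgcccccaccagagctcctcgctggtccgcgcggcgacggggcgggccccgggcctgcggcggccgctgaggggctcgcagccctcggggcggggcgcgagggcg
The letters searched on both strands were TTTCCCGC, TTTGGCGC, TTTCGCGC and TTTGCCGC, and the same without the first T, a set that holds the longer ones. Over its whole window Cdk2 had 3 matches of 7 letters, 1 of them part of a match of 8. The windows of Ccnd3, Ccne1, Cdk4, Cdk6, Cdkn1b and E2f1 had none. Among all 32851 windows, 9.57% held a match of 7 letters and 2.26% one of 8. The RefSeq start site of E2f1 is 294 bases from the nearest start annotated in GENCODE, and its window lies within annotated exons. A match describes letters and is no evidence of binding. Whether E2f1 had a part in the levels of Cdk2 and Ccne1 was not tested.

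E2f1, the factor released when the retinoblastoma protein is phosphorylated (chromosome 2, 154559407 to 154569892), had the largest fold change of the 10 and the widest spread. It stood at 309, 379 and 464 in wild type and at 31.2, 247 and 171 in labelled knockout. All labelled-knockout values were below all wild-type values, and library 1, with 28 reads (95% Poisson interval 20.7 to 45.1 normalized counts), was far below the other 5. Between the highest and the lowest library the level differed 14.9-fold, against 4.43-fold for Ccne1 and 2.55-fold or less for the other 8 members. On the log2 scale the fold change was -1.77 (SE 0.72, 95% interval -3.47 to -0.083, limma adjusted p = 0.477), with -1.36 by DESeq2 (adjusted p = 0.232, the lowest over 15 alternatives, of which the highest was 0.946). Without labelled-knockout library 1 it was -0.88, and it reached -2.35 without labelled-knockout library 2.

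Cdkn1b, which encodes the inhibitor p27 (chromosome 6, 134920401 to 134925513), stood at 673, 865 and 726 in wild type and 726, 676 and 574 in labelled knockout. The groups overlapped, and only labelled-knockout library 3 lay below the wild-type range. Its log2 fold change was -0.19 (SE 0.17, 95% interval -0.59 to 0.20, limma adjusted p = 0.726). Leaving out each library in turn moved it between -0.27 and -0.092. The ratio of Cdkn1b to Cdk2 per kilobase was 1.49, 1.64 and 1.44 in wild type and 3.00, 1.66 and 1.49 in labelled knockout, so library 1 was far above the wild-type range and library 2 just above it.

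**Figure D2:**
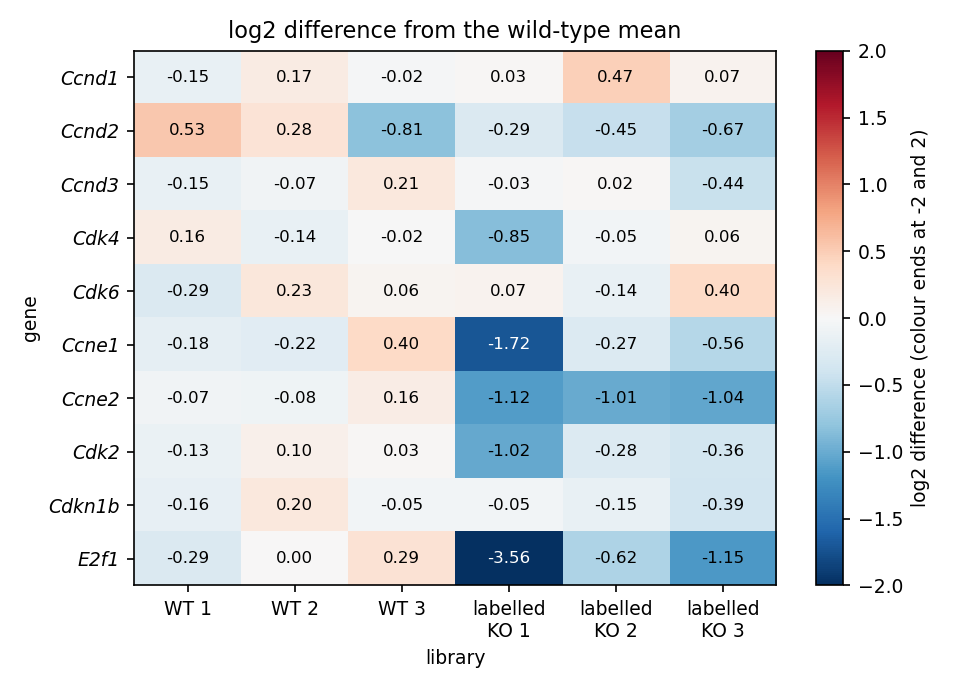
Log2 difference of each of the 10 genes (rows) in each library (columns) from the mean of the wild-type libraries, with blue for lower and red for higher and the colour ending at -2 and 2. Ccne2 is lower by a like amount in the 3 labelled-knockout libraries (-1.12, -1.01 and -1.04), while E2f1 (-3.56), Ccne1 (-1.72), Cdk2 (-1.02) and Cdk4 (-0.85) have their lowest value in library 1.

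**Figure D3:**
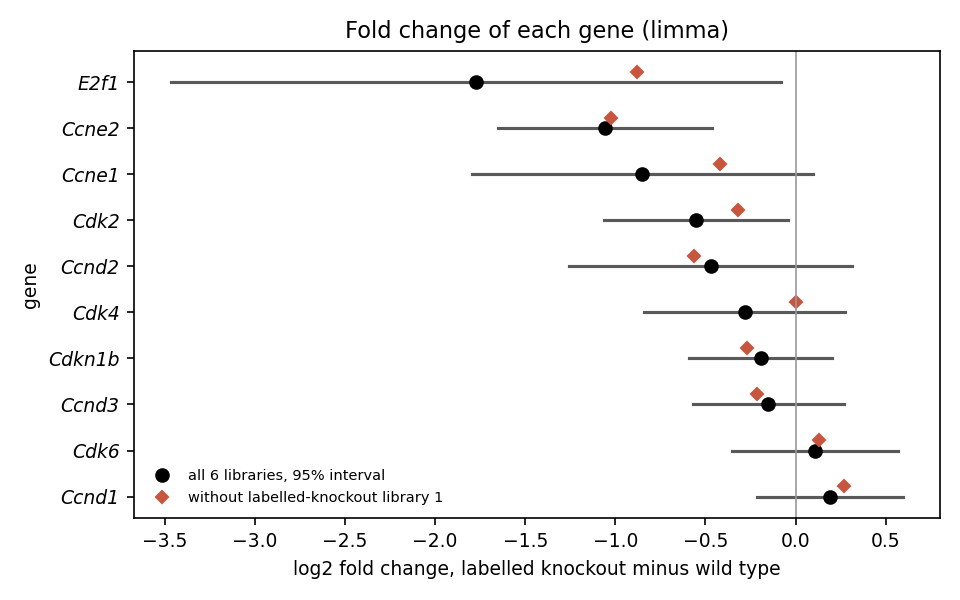
Fold change (log2, labelled knockout over wild type) of each gene by limma (black, with its 95% interval) and the same without labelled-knockout library 1 (red diamonds). The intervals of E2f1, Ccne2 and Cdk2 lie below 0 before adjustment over all genes, and E2f1, Ccne1, Cdk2 and Cdk4 move toward 0 without that library.

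As a measure of balance, the sum of the D-type cyclins was set against that of the E-type cyclins, both per kilobase. The D-type sum was 753 ± 58.2 in wild type and 795 ± 124 in labelled knockout. The E-type sum was 89.2, 87.3 and 120.4 in wild type and 36.1, 66.4 and 57.6 in labelled knockout. The D-type sums overlapped between the groups, and the E-type sums did not. The ratio of D to E was 7.76, 9.25 and 6.31 in wild type and 20.7, 14.1 and 12.2 in labelled knockout, higher in each labelled-knockout library than in any wild-type library. No p is given for these sums, since the genes were chosen with results known.

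**Figure D4:**
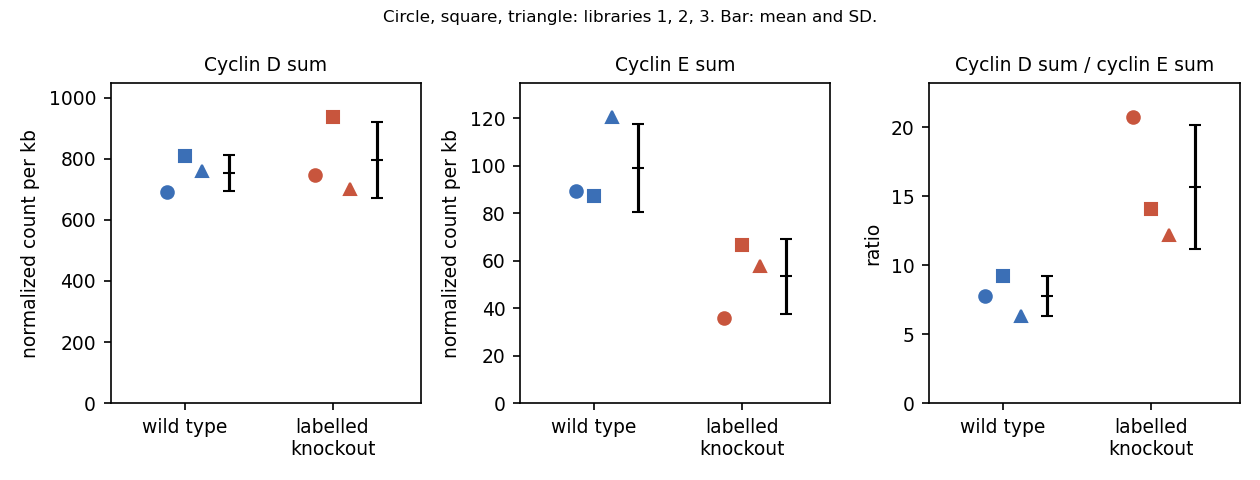
Sum of the 3 D-type cyclins, sum of the 2 E-type cyclins (both in normalized counts per kilobase, axes from 0) and their ratio in each library, with the group mean and SD beside the points. The D-type sums overlap, the E-type sums are lower and the ratios higher in labelled knockout.

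Genes around the members were described from 8 lists. The list of 30 E2F target genes, which act in replication and nucleotide supply, had 30 of 30 lower means and a median log2 fold change of -0.96. Its groups did not overlap for 24 genes, all lower, and 11 had an unadjusted limma p under 0.05, all lower, while limma called 0, edgeR 0 and DESeq2 1. The thymidine kinase Tk1 was the gene called, at 774, 971 and 1096 in wild type and 111, 431 and 247 in labelled knockout (-2.03 on the log2 scale, SE 0.45, limma adjusted p = 0.373, DESeq2 adjusted p = 0.00431). The replication helicase factor Cdc45 (-1.48) and the ribonucleotide reductase subunit Rrm1 (-0.81) came next by p. Against the mean of wild type, the median of these genes stood at -2.32, -0.37 and -0.55 in labelled knockout, where the wild-type medians had an SD of 0.093, and the median fold change was -0.45 without library 1.

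Cyclins and kinases that act after G1, in a list that also held Mki67, were lower as well. This list had 10 of 10 lower means, a median log2 fold change of -1.44 and 10 genes with an unadjusted limma p under 0.05. Limma and edgeR called 0 of them, and DESeq2 called 2 lower. Those were the mitotic cyclin Ccnb1, at 73.6, 72.2 and 105.8 in wild type and 11.1, 22.3 and 14.4 in labelled knockout (-2.35, DESeq2 adjusted p = 0.000166), and the mitotic kinase Plk1 (-1.45, DESeq2 adjusted p = 0.0248). The mitotic kinase Aurka had a log2 fold change of -1.17. Ccna2, the cyclin that follows cyclin E on CDK2, stood at 183, 171 and 200 in wild type and 27.8, 129 and 85.4 in labelled knockout (-1.43, limma adjusted p = 0.433, and -0.81 without labelled-knockout library 1). Cdk1, the kinase of mitosis, stood at 181, 242 and 274 against 16.7, 106 and 120.4 (-1.91, limma adjusted p = 0.451, and -1.01 without that library). Ccna2 is in both lists.

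Among the pocket proteins and other E2F and DP factors, 7 of 12 means were lower and the median was -0.12, or -0.063 without labelled-knockout library 1. The groups did not overlap for 6 of them, 5 lower and 1 higher. Among the lower was E2f2, an activating E2F, at 140.4, 179 and 206 in wild type and 81.3, 88.1 and 88.5 in labelled knockout (-1.0, SE 0.27, limma adjusted p = 0.383). Of this list DESeq2 called E2f2 alone (adjusted p = 0.0287), and limma and edgeR called 0, while 3 had an unadjusted limma p under 0.05, all lower. Like Ccne2, E2f2 hardly differed among the labelled-knockout libraries. For Tk1, Ccnb1, Plk1 and E2f2 the DESeq2 p was the lowest over 15 alternatives, and the highest was 0.946, by limma without wild-type library 2. The repressor E2f8 (-1.26) and the E2F partner Tfdp1 (-0.52, and -0.28 without labelled-knockout library 1) followed by p. Rb1, the retinoblastoma gene itself, stood at 619, 612 and 697 in wild type and 942, 732 and 597 in labelled knockout (0.21, SE 0.20, limma adjusted p = 0.733, and 0.043 without labelled-knockout library 1).

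The other 5 lists had medians between -0.26 and 0.19, or between -0.56 and 0.020 without labelled-knockout library 1, and limma, edgeR and DESeq2 called 0 of their genes. Of the other 7 CDK inhibitors 6 had lower means (median -0.26, and -0.56 without labelled-knockout library 1, with 0 at an unadjusted p under 0.05), with Cdkn2d (-0.49), Cdkn3 (-0.83) and Cdkn1c (0.19) first by p. Cdkn1a, which encodes p21, stood at 1006, 2136 and 1891 in wild type and 3305, 976 and 1192 in labelled knockout, with its highest value in labelled-knockout library 1. The log2 difference between the groups was -0.027 (SE 0.50, limma adjusted p = 0.99), and its sign depended on which library was left out. The 6 genes of the CDK-activating kinase and the CDC25 phosphatases all had lower means (median -0.20), with 1 at an unadjusted p under 0.05, Cdc25b (-0.85), followed by Cdc25c (-0.86) and Cdk7 (-0.25, and -0.13 without labelled-knockout library 1).

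Genes that turn over the G1 cyclins and p27 were lower in 7 of 11 (median -0.029, 0 at an unadjusted p under 0.05). Fbxo31, a ubiquitin ligase subunit (0.82, and 0.44 without labelled-knockout library 1), Rnf123 (0.37) and Rbx1 (-0.39, and -0.25 without it) led by p. Skp2, the subunit that marks p27 for degradation, stood at 108, 158 and 108 in wild type and 36.8, 137 and 102 in labelled knockout (-0.60, limma adjusted p = 0.688, and -0.051 without labelled-knockout library 1). In the list for the mitogen side of cyclin D, 8 of 10 means were higher. Its median of 0.19 turned to -0.023 without labelled-knockout library 1. The list also held genes that oppose the D-type cyclins, Gsk3b, Foxo1 and Foxo3, all with higher means. Its count therefore gives no direction of mitogen signalling. There 1 gene had an unadjusted p under 0.05, Ctnnb1, which encodes beta-catenin (0.39), and Gsk3b (0.23) and Jun (0.28) followed, at 0.11 and 0.078 without that library. Other cyclins and CDKs were higher in 16 of 22 (median 0.075, and 0.020 without labelled-knockout library 1), and 1 had an unadjusted p under 0.05, the transcriptional cyclin Ccnk (0.48), ahead of its partner kinases Cdk12 (0.50) and Cdk13 (0.35), which were at 0.28 and 0.14 without that library. Rb1, Cdkn1a, Skp2, Ccna2 and Cdk1 were named after their values were seen.

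**Figure D5:**
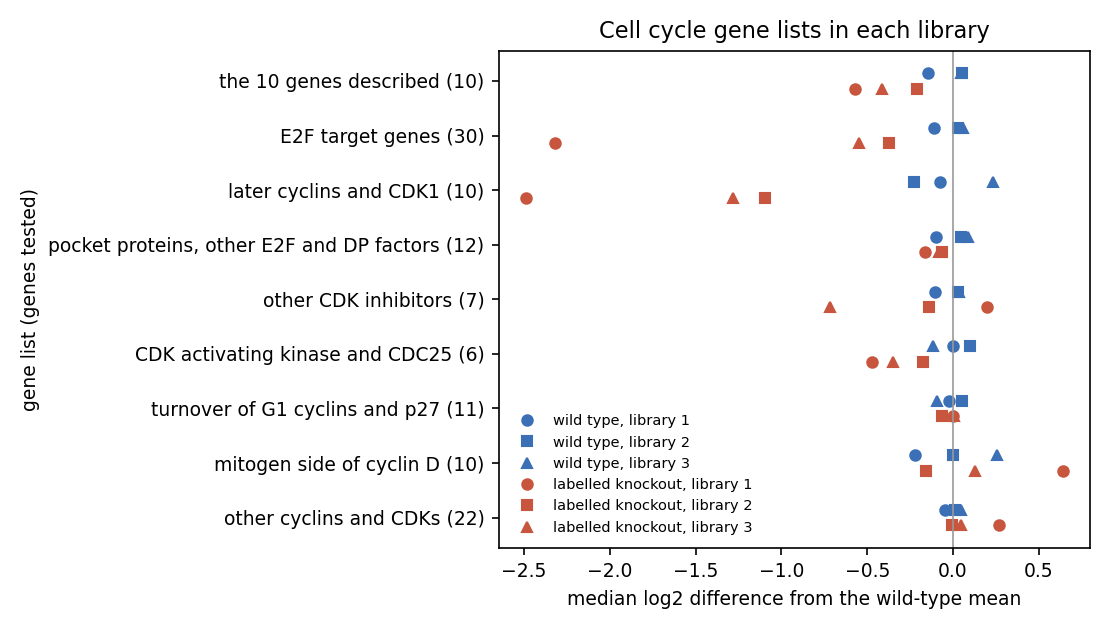
Median log2 difference from the wild-type mean of the 10 genes and of the 8 lists in each library, with the number of genes tested in brackets. E2F target genes and the later cyclins stand lowest in labelled-knockout library 1 (-2.32 and -2.49) and below every wild-type library in the other labelled-knockout libraries, while the genes of cyclin turnover stay near 0.

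Among 11910 protein-coding genes compared, the 5 whose centred log2 values lay closest to those of E2f1 over the 6 libraries had root-mean-square differences of 0.094 to 0.19, where the median gene was at 1.31. Ranks 2 to 4 were held by Rrm2, Pclaf and Hells, at 0.15, 0.16 and 0.17, and the first and the fifth are not described here. Rrm2, a ribonucleotide reductase subunit, stood at 600.1, 931 and 1002 in wild type and at 60.1, 447 and 382 in labelled knockout, the same order of libraries as E2f1 in wild type and in labelled knockout. The genes closest to Ccnd1 were Flywch1, Trp53rkb, Taf1c, Ssbp4 and Wdr6, at 0.066 to 0.093 against a median of 0.33. For a gene as level as Ccnd1 such closeness says little. The centred values of E2f1 themselves had a root mean square of 1.28, near the median of 1.31. Labelled-knockout library 1 lay farthest from the mean of E2f1, so closeness to E2f1 depended much on that library.

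Marker sums of some other cell types differed between the groups or stood out in 1 library, while those of others overlapped. Lower means in labelled knockout were found for 7 of 8 endothelial markers and 8 of 8 fibroblast and smooth muscle markers, of which DESeq2 called 0 and 5 lower and limma 0. The endothelial sum was 11654 to 19324 in wild type and 4815 to 10585 in labelled knockout, and the fibroblast and smooth muscle sum, with Lum at 0 in at least 1 library, was 15519.8 to 33679 and 4385 to 12606. Labelled-knockout library 1, where E2f1, Ccne1, Cdk2 and Cdk4 were lowest, had the highest sums of 8 neutrophil markers (4363 against 1472 or less elsewhere), 7 erythroid markers (13549.5 against 2973 or less) and 8 fat cell markers (40751 against 2677 or less), and was the highest library for 10 of the 12 proximal tubule markers. Markers at 0 in at least 1 library included Ly6g, Mmp8, Adipoq, Cidea and Retn. Macrophage and monocyte markers (4367 to 8117 in wild type, 3331 to 8086 in labelled knockout, none at 0, with 6 of 8 means lower, 2 of them at an unadjusted p under 0.05 and 1 called by DESeq2), those of the thick limb, distal tubule and collecting duct (48343 to 88517 and 24079.9 to 99634, none at 0) and those of T and B cells (17.1 to 48.5 and 34.0 to 92.9, with markers at 0 in at least 1 library that included Cd3e, Trbc2 and Ms4a1) overlapped between groups. For the thick limb, distal tubule and collecting duct 6 of 8 means were lower, 2 of them at an unadjusted limma p under 0.05. For T and B cells 7 of 8 were higher, 1 of them at that level. The part of all these cell types in the differences of the cyclins was not tested.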

How the data were processed

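Per the file headers, the authors deposited 1 value per gene and library with gene symbol, mm10 coordinates and exon length. To make the deposited signal, the authors scaled each library's read counts by a single size factor, judging from the values: 100% of them are whole multiples of 1 step within 0.001 reads. The build is mm10 per the submitters' processing notes. Not given in the sources used here are the aligner, the counting and the use of strand. The members' lengths equalled the exon unions of GENCODE M21.

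The planned test for normalized counts was used: limma 3.58.1 (trend, robust) in R 4.3.3 on log2(normalized count + 1), which understates the change of low genes. Genes with a mean of at least 1 entered, 21721 in all, with Benjamini-Hochberg adjustment over them and a threshold of 0.05. Alternatives were edgeR 4.0.16 and DESeq2 1.42.0 on recovered reads, other pseudocounts, filters and scalings, a replicate block and leaving out each library. Fits were tested on simulated data, where limma recovered 28% of 2-fold changes, edgeR 26% and DESeq2 36%, with 9, 6 and 31 false calls. At 4-fold they recovered 90%, 86% and 90%. In the simulation the spread depended on level alone, and changes were put only into genes with a mean of at least 50. No simulated library stood apart as labelled-knockout library 1 did, so recovery in the real data may be lower. Limma did not call Ccnb1 (-2.35) or Tk1 (-2.03) there. The absence of a call therefore says little about changes near 2-fold, and the simulated recovery at 4-fold cannot be carried over to these libraries. Exact permutation of 3 against 3 cannot go below p = 0.1 and was not used. All library pairs of a group differed beyond sampling noise (chi-square divided by its degrees of freedom, 34.0 to 179). Samples were grouped by the genotype label.

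Members, lists and rules were chosen with earlier results of these data known. The genes named are the 10 members, the 3 of smallest p in each list and the 5 closest in pattern to E2f1 and to Ccnd1, of which some are not described. Closeness, over protein-coding genes with a mean of at least 50 and an official symbol, is the root mean square difference of log2 values centred on each gene's mean. Skp1 was matched by its older symbol Skp1a, and the marker Ahsp is not used here. Some single marker values are not reported here.

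Transcripts of the members were compared with those of other genes with BLAST 2.17.0 (at least 95% identity over 200 bases). Besides genes that overlap on the chromosome, Ccnd3 shared 881 bases (96.2%) with Ccnd3-ps and Cdk6 289 bases (95.5%) with Gm16505, so these counts are uncertain. Shared exon bases were 23.4% for Ccnd1, 19.7% for Cdk4 (with Tspan31) and 7.87% or less for the other members apart from Ccne2.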

Additional observations from a re-analysis of the deposited data

How the results depend on the processing

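Over 15 alternatives, the members' log2 fold changes kept their sign in all but 3 cases, and 1 call was gained: DESeq2 called 1 member, Ccne2. With 1 library left out Cdk4 ran from -0.45 to 0.0023, the latter without labelled-knockout library 1, and Cdk6 from -0.038 (wild-type library 1 left out) to 0.24, with -0.037 when labelled-knockout library 3 was left out. Cdkn1a stood at 0.12 with edgeR and with DESeq2, and with 1 library left out ran from -0.57 to 0.31, being above 0 at 0.18 without wild-type library 2, 0.095 without wild-type library 3, 0.31 without labelled-knockout library 2 and 0.17 without labelled-knockout library 3. The members' median was -0.44 to -0.25 with 1 library left out. It was -0.47 with scaling by library total, which moved the median of all genes to -0.091.

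Of all genes limma called 1, which was higher. The count was 5 with a pseudocount of 5 and 5 without the filter (3 higher and 2 lower each), 4 with TMM scaling and 4 with scaling by library total (3 higher and 1 lower each), and 316 with DESeq2 (105 higher, 211 lower). It ran from 1 to 6 with 1 library left out, with 6 without labelled-knockout library 1 and 3 without labelled-knockout library 3. The replicate block gave 16, with 0 members called. The labels do not say that a replicate number marks a shared litter or day. The deviations of same-numbered libraries correlated at 0.067, -0.15 and 0.12 over 12841 genes, and those of differently numbered libraries at -0.23 to 0.20. With 3 libraries per group, such correlations cannot decide whether the numbers pair the samples. Among the members, relative counting error was largest for E2f1 and Ccne1 in labelled-knockout library 1, with 28 and 39 reads. The total of that library, 17372645 reads, lay within the range of the other libraries.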
